A study of Danio rerio with 45 samples.

Results

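The ventral homeobox genes vox, vent and ved and the even-skipped homologue eve1 were followed through early zebrafish development. A locus carrying each symbol was looked for in a table of 31966 genes, and 3 of the 4 symbols (vox, vent and eve1) had a row of their own. The symbol ved was listed only in a locus merged with polm, which encodes DNA polymerase mu, and reads of these 2 genes cannot be told apart there. That merged locus is described beside the 3 genes and is not counted among them. RNA was sequenced from whole zebrafish embryos of strain AB/PS that were wild type (WT) or had received a rad21 morpholino (Rad21 MO) or a ctcf morpholino (CTCF MO). Morpholinos are synthetic antisense molecules that bind a chosen RNA and interfere with its splicing or translation. The protein encoded by rad21 is a subunit of cohesin, the ring that holds DNA strands together, and CTCF is a DNA-binding protein at which cohesin often stops. Each treatment was sampled at 2.5 and 3.3 hours post fertilization (hpf), around the start of zygotic transcription, and later at 4.5, 5.3 and 10 hpf, with 3 libraries in each of the 15 groups and 100 pooled embryos in each library. Nothing in the labels ties the pools to different clutches or states whether WT embryos were injected. The p-values therefore set group differences against the spread among these pools, and that spread may be technical.

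Vox, Vent and Ved are homeodomain repressors that act redundantly on the ventral side of the zebrafish gastrula. They restrict organizer genes such as gsc and chd to the dorsal side, and the dorsal repressor Dharma in turn keeps them out of the organizer. Wnt8 and bone morphogenetic protein (BMP) signalling maintain their transcription during gastrulation. Eve1 is a homeodomain protein of the ventral and posterior margin that acts downstream of BMP and Wnt8 in trunk and tail formation.

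Values are FPKM, fragments scaled to transcript length in kilobases and to 1e+06 mapped fragments, and so are corrected for transcript length, so levels of different genes can be set side by side. Tests used limma on log2(FPKM + 1), and a gene was called at a Benjamini-Hochberg adjusted p under 0.05 over all genes tested. All log2 differences are on that scale, which understates changes of low genes. The FPKM table gives no read totals, so depth is unknown. FPKM sums ranged from 676000 to 1816000 per library, 12788 to 15833 genes reached 1 FPKM, and r across genes between libraries of a group lay between 0.967 and 0.986. At 4.5 hpf the sums were 1172000, 1208000 and 1112000 in the WT libraries and 837100, 880900 and 1102000 in Rad21 MO. For 2 Rad21 MO libraries the age label contradicts the title, 1 titled 3.3 hpf with an age of 4.5 hpf and 1 titled 4.5 hpf with an age of 3.3 hpf. The table's columns do not show which they are, so each column kept the stage in its name, and results on vox and vent at these stages are also given without each Rad21 MO library in turn. A morpholino need not lower the level of its target RNA. Mean rad21a in Rad21 MO was above WT at 2.5, 3.3 and 10 hpf and below it at 4.5 hpf (100.5 ± 10.3 against 143 ± 13.6 FPKM, SD, n = 3) and 5.3 hpf (154 ± 10.54 against 203 ± 10.4), and in CTCF MO it was also lower at those stages (118.5 ± 12.2 and 159 ± 2.18). Mean ctcf in CTCF MO was below WT at 4.5 hpf (259.8 ± 55.3 against 399 ± 46.2) and 5.3 hpf (237 ± 3.39 against 496 ± 22.0) but 155 ± 13.1 against 150.3 ± 6.66 at 10 hpf, and in Rad21 MO it was also lower at 4.5, 5.3 and 10 hpf (248 ± 46.0, 329 ± 4.80 and 96.0 ± 7.92).

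In WT embryos vox and vent rose from 2.5 to 3.3 hpf, eve1 and the merged locus rose after 3.3 hpf, and the mean of each was highest at 5.3 hpf. vox (Zv9 chromosome 13, 54046955 to 54049197) read 5.87, 9.14 and 5.45 FPKM in the 3 WT libraries at 2.5 hpf and 52.8, 65.9 and 59.6 at 3.3 hpf. At 4.5 hpf it read 272, 380 and 366.5 FPKM, at 5.3 hpf 447, 521 and 378, and at 10 hpf 131, 154 and 139.6. No library of 3.3 hpf overlapped those of 2.5 or 4.5 hpf, whereas the libraries of 4.5 and 5.3 hpf overlapped. vox rose from 2.5 to 3.3 hpf (log2 difference 2.98, SE 0.18, adjusted p = 1.98e-07) and from 3.3 to 4.5 hpf (2.49, SE 0.18, adjusted p = 1.47e-07). From 4.5 to 5.3 hpf the difference of 0.40 (95% interval 0.018 to 0.79) did not pass the adjusted threshold (adjusted p = 0.12). It then fell by 1.65 to 10 hpf (adjusted p = 1.94e-06). By FPKM, vox moved from rank 8910 at 2.5 hpf to rank 379 at 5.3 hpf, where 14405 genes stood at 1 FPKM or more.

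vent (chromosome 13, 54056771 to 54063429) was lower than vox in every library and rose later. Its WT libraries held 0.383, 0.478 and 0.474 FPKM at 2.5 hpf and 2.28, 2.78 and 3.73 at 3.3 hpf. At 4.5 hpf they held 42.0, 58.3 and 55.5 FPKM, at 5.3 hpf 109, 114 and 86.0, and at 10 hpf 30.1, 26.8 and 26.99. Each of the 4 steps separated the libraries without overlap. How many of all genes separate in this way was not counted, at these steps or in any other comparison. The rises were 1.43 to 3.3 hpf (SE 0.16, adjusted p = 7.22e-05), 3.75 to 4.5 hpf (adjusted p = 1.17e-09) and 0.98 to 5.3 hpf (adjusted p = 0.00133), and vent fell by 1.84 to 10 hpf (adjusted p = 2.14e-07). At 3.3 hpf vox had reached 13.2% of its mean WT level at 5.3 hpf and vent 2.84%.

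eve1 (chromosome 3, 23933175 to 23935071) was at or near 0 through 3.3 hpf. It was listed at 0.157, 0.125 and 0 FPKM in WT at 2.5 hpf and at 0 in all 3 libraries at 3.3 hpf. At 4.5 hpf it stood at 2.64, 19.9 and 7.18 FPKM, at 5.3 hpf at 94.7, 101 and 35.3, and at 10 hpf at 13.2, 15.8 and 11.6. The WT pools of 4.5 hpf thus ranged more than 7-fold in eve1, while vox differed less than 1.5-fold among the same pools. No fold is given from 3.3 to 4.5 hpf because the earlier group is listed at 0. In WT eve1 reached the 1 FPKM needed for testing only from 4.5 hpf on. Its limma call at this step (adjusted p = 0.000181) therefore adds no support beyond the listed values. From 4.5 to 5.3 hpf eve1 rose by 3.05 (SE 0.50, adjusted p = 0.00133), and it fell by 2.29 to 10 hpf (adjusted p = 0.00102). The SE, the same for both steps, pools all WT stages, including 2.5 and 3.3 hpf, where eve1 varied little. In log2(FPKM + 1) the 4.5 hpf libraries lay -1.23, 1.29 and -0.06 from their mean. Those of 5.3 hpf lay 0.43, 0.53 and -0.96 from theirs. The SE and both adjusted p-values thus do not measure the spread among the compared pools alone. The libraries of 4.5 and 5.3 hpf did not overlap, and neither did those of 5.3 and 10 hpf.

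The merged polm,ved locus (chromosome 10, 46328646 to 46360626) differed from the others in a level of about 20 FPKM at the first 2 stages. WT libraries held 18.4, 16.6 and 20.4 FPKM at 2.5 hpf and 19.9, 19.5 and 21.4 at 3.3 hpf, and these overlapped. They held 116, 243.5 and 170.4 FPKM at 4.5 hpf, 369.5, 326 and 239 at 5.3 hpf, and 53.3, 42.1 and 40.1 at 10 hpf. The locus rose by 3.00 from 3.3 to 4.5 hpf (adjusted p = 1.78e-07) and fell by 2.75 from 5.3 to 10 hpf (adjusted p = 9.8e-08). In between, from 4.5 to 5.3 hpf, the libraries overlapped and the rise of 0.85 (adjusted p = 0.014) lost its call under quantile normalization (0.46, adjusted p = 0.0782), after rescaling each library to a sum of 1e+06 (0.53, adjusted p = 0.12), and without WT library 0 of 4.5 hpf (0.59, adjusted p = 0.0602) or WT library 0 or 1 of 5.3 hpf (adjusted p = 0.0636 and 0.0521). Whether polm or ved carried these changes cannot be told from the locus.

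**Figure D1:**
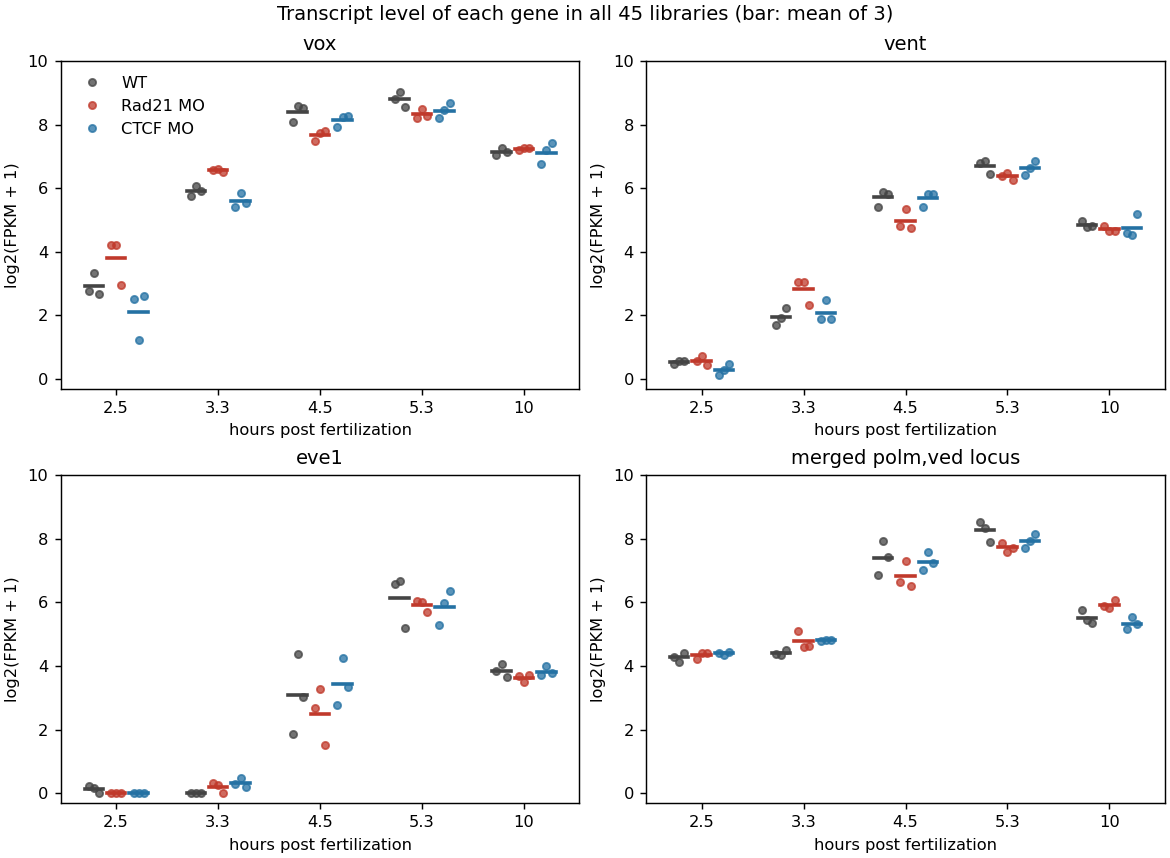
Level of vox, vent, eve1 and the merged polm,ved locus, as log2(FPKM + 1), against stage in hours post fertilization. Each point is 1 library of WT, Rad21 MO or CTCF MO and each bar the mean of 3, and WT means are highest at 5.3 hpf in all 4 panels.

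Of the 3 genes with rows of their own, 2 were called from 2.5 to 3.3 hpf in WT, where 2.46% of all genes tested were called, and 3 from 3.3 to 4.5 hpf against 46.6%. Testing needed at least 1 FPKM in at least 3 libraries of the fit. vent reached that level only from 3.3 hpf on and eve1 only from 4.5 hpf on, so their first rise was part of why they were tested. From 4.5 to 5.3 hpf 2 were called against 24.4% of all genes, and from 5.3 to 10 hpf 3 were called against 68.9%. The early step is thus the one at which calls were rare in the table as a whole. At the step to 10 hpf, at which all 3 fell, 5428 genes were called lower and 6560 higher.

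vox and vent lie side by side on chromosome 13, 7574 bases apart, and their ratio within a library followed the stage. vox stood above vent by a factor of 20.95 ± 4.33 in WT at 3.3 hpf, 6.54 ± 0.0662 at 4.5 hpf, 4.35 ± 0.241 at 5.3 hpf and 5.09 ± 0.716 at 10 hpf (SD, n = 3). At 4.5 hpf the 3 WT libraries ranged only from 6.48 to 6.61, although each gene alone ranged by more than 1.3-fold among them. In Rad21 MO the ratio was 16.1 ± 5.30, 6.79 ± 1.52, 3.93 ± 0.294 and 5.98 ± 0.512 at the same 4 stages, and in CTCF MO 14.9 ± 2.11, 5.59 ± 0.217, 3.54 ± 0.0526 and 5.36 ± 1.15. The ratio in Rad21 MO overlapped that in WT at 3.3, 4.5, 5.3 and 10 hpf. At 5.3 hpf this overlap was narrow, with Rad21 MO from 3.588 to 4.109 and WT from 4.096 to 4.574. In CTCF MO the ratio lay below every WT library at 4.5 and 5.3 hpf. No test of the ratio was run. On the other side of the pair, the nearest protein-coding neighbour INPP5A, 37076 bases from vox, stayed at or below 9.35 FPKM in every library.

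**Figure D2:**
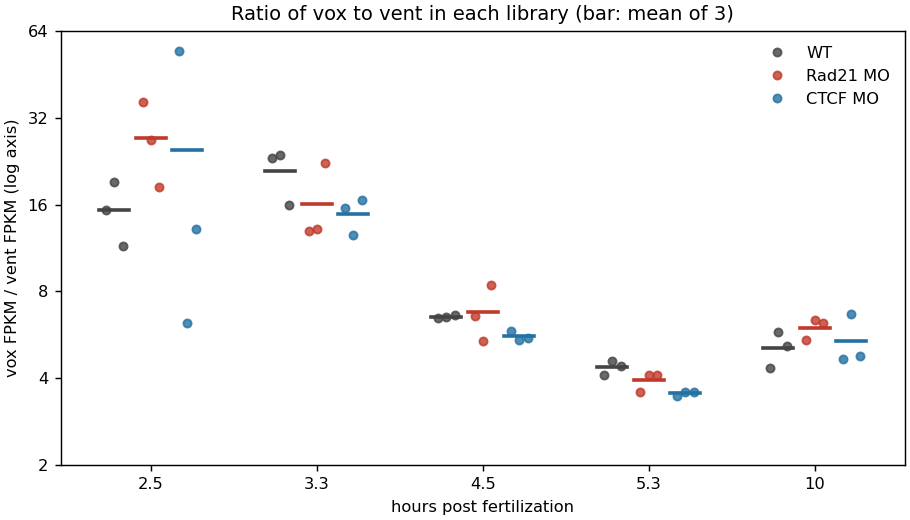
Ratio of vox FPKM to vent FPKM in each library, on a log axis, against stage, with the mean of 3 libraries as a bar. The ratio is 11.5 or more in all WT libraries of 2.5 and 3.3 hpf and 6.61 or less in all WT libraries from 4.5 hpf on.

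eve1 lies next to the hoxb genes, 10402 bases from hoxb13a. Its neighbours there did not share its early course: hoxb10a and hoxb9a were listed at 0 in WT at 5.3 hpf, when eve1 was at 77.1 ± 36.3 FPKM, and were at 43.6 and 50.6 FPKM at 10 hpf, when eve1 was at 13.5 ± 2.08. These hoxb genes encode homeodomain proteins of posterior identity.

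In Rad21 MO vox and vent lay on opposite sides of WT at 3.3 and 4.5 hpf. At 3.3 hpf both genes were above WT in all 3 Rad21 MO libraries, and at 4.5 hpf both were below WT in all 3. The share of all genes whose libraries separate in this way was not counted. Of all genes tested, 1116 of 14051 at 3.3 hpf and 5337 of 14902 at 4.5 hpf had an unadjusted limma p under 0.05. At 3.3 hpf vox read 94.8, 97.0 and 90.7 FPKM in Rad21 MO, all above the highest WT library at 65.9 (log2 difference 0.66, SE 0.12, 95% interval 0.39 to 0.93). This did not pass the adjusted threshold in limma (adjusted p = 0.0837). vent read 7.29, 7.39 and 4.08 FPKM, again above every WT library (0.86, SE 0.26, 95% interval 0.27 to 1.46, adjusted p = 0.335). Without single libraries vox lay between 0.58 and 0.74 (adjusted p from 0.138 to 0.262) and vent between 0.74 and 1.10 (adjusted p from 0.261 to 0.676), with no call. Neither of the 2 genes tested was called, and 0.171% of all genes were; both had an unadjusted p under 0.05. The authors' deposited table holds 326 entries for this stage. It lists both as different, vox with a log2 change of 0.68 (q = 0.00356) and vent with 1.12 (q = 0.00356). eve1 was listed at 0.259, 0.204 and 0 FPKM in Rad21 MO, too low to be tested. The merged locus read 33.5, 23.3 and 23.8 FPKM, above all WT libraries (0.37, adjusted p = 0.422).

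At 4.5 hpf vox read 178, 212 and 220 FPKM in Rad21 MO, all below the lowest WT library at 272. The level was 59.9% of WT (log2 difference -0.73, SE 0.16, 95% interval -1.08 to -0.38, adjusted p = 0.014). vent read 27.02, 39.4 and 26.2 FPKM, below the lowest WT library at 42.0, and stood at 59.5% of WT (-0.74, SE 0.19, 95% interval -1.17 to -0.31, adjusted p = 0.0262). vox and vent, 2 of the 3 genes tested, were called lower, at a stage at which 20.6% of all genes were called, 1576 higher and 1501 lower. A share of that size means that calls were common at this stage. eve1 read 5.45, 8.74 and 1.85 FPKM, overlapping the wide WT range of 2.64 to 19.9, with 1 library below it (-0.60, 95% interval -2.07 to 0.87, adjusted p = 0.554). The merged locus read 99.2, 158 and 90.3 FPKM, and its highest library overlapped WT (-0.59, 95% interval -1.23 to 0.053, adjusted p = 0.173). In a fit of all 45 libraries the merged locus was called (adjusted p = 0.0254). The authors' deposited table holds 3668 entries for this stage, higher and lower genes together. It lists all 4 as lower, with log2 changes of -0.59 for vox (q = 0.000919), -0.62 for vent (q = 0.000499), -0.79 for eve1 (q = 0.0397) and -0.49 for polm,ved (q = 0.0163). In whole embryos, fewer cells of a type and less RNA per cell cannot be told apart.

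These calls at 4.5 hpf depended on single libraries and on scaling. Without each Rad21 MO library in turn vox lay between -0.79 and -0.64, with an adjusted p of 0.0575 without library 0, and without WT library 1 it was -0.64 (adjusted p = 0.0533). vent lay between -0.92 and -0.64 over all 6 such fits and lost its call without Rad21 MO library 0 or 2 and without WT library 1 or 2, with adjusted p from 0.0765 to 0.0923. Rescaling each library to a sum of 1e+06 moved the median of all genes from -0.07 to 0.19, turned the split of calls to 1950 higher and 73 lower, and left vox at -0.41 (adjusted p = 0.156) and vent at -0.43 (adjusted p = 0.262). Quantile normalization left vox at -0.27 (adjusted p = 0.171) and vent at -0.67 (adjusted p = 0.0431), with 1314 genes called higher and 705 lower.

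Whether the difference changed between the stages was tested as the Rad21 MO difference at 4.5 hpf minus that at 3.3 hpf in a fit of all 45 libraries. It was -1.39 for vox (SE 0.37, 95% interval -2.15 to -0.63, adjusted p = 0.0126) and -1.61 for vent (SE 0.28, 95% interval -2.17 to -1.05, adjusted p = 0.000262). vox and vent were called and eve1 was not (-0.80, adjusted p = 0.464), while 11.6% of all genes were called. The merged locus was called too (-0.96, SE 0.28, adjusted p = 0.0208). Both gene calls held without any single library of the 4 groups, with vox between -1.54 and -1.30 and vent between -1.84 and -1.48. With 1 Rad21 MO library of each stage left out together, in all 9 pairs, vent lay between -2.03 and -1.38 and kept its call, and vox lay between -1.48 and -1.28 and kept it in 6 of 9, with adjusted p up to 0.0768. The merged locus lost its call without Rad21 MO library 0 of 3.3 hpf, libraries 0 or 2 of 4.5 hpf or WT library 1 of 4.5 hpf. After rescaling to 1e+06, vent was at -1.34 (adjusted p = 0.00759), vox at -1.09 (adjusted p = 0.0863) and the merged locus at -0.66 (adjusted p = 0.189). Under quantile normalization vent was at -1.38 (adjusted p = 0.000964), vox at -1.06 (adjusted p = 0.0309) and the merged locus at -0.61 (adjusted p = 0.099).

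**Figure D3:**
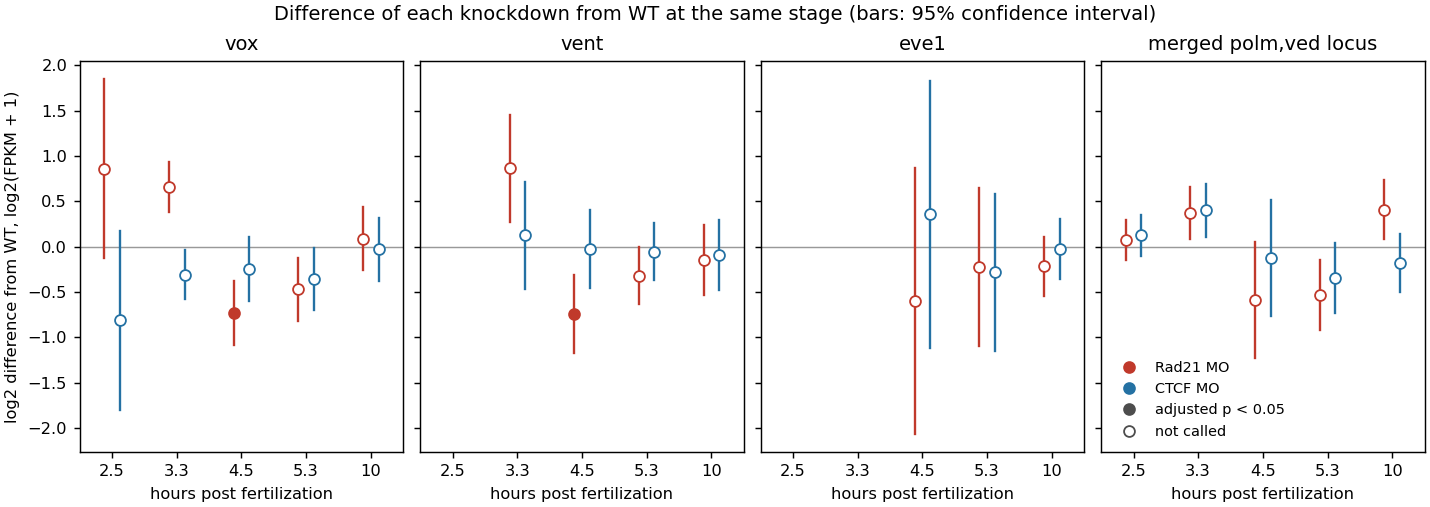
Difference of each knockdown from WT at the same stage, on the log2(FPKM + 1) scale, for the 3 genes and the merged locus, with 95% confidence intervals. Filled points, vox and vent in Rad21 MO at 4.5 hpf, passed the adjusted threshold, and genes too low to test have no point.

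**Figure D4:**
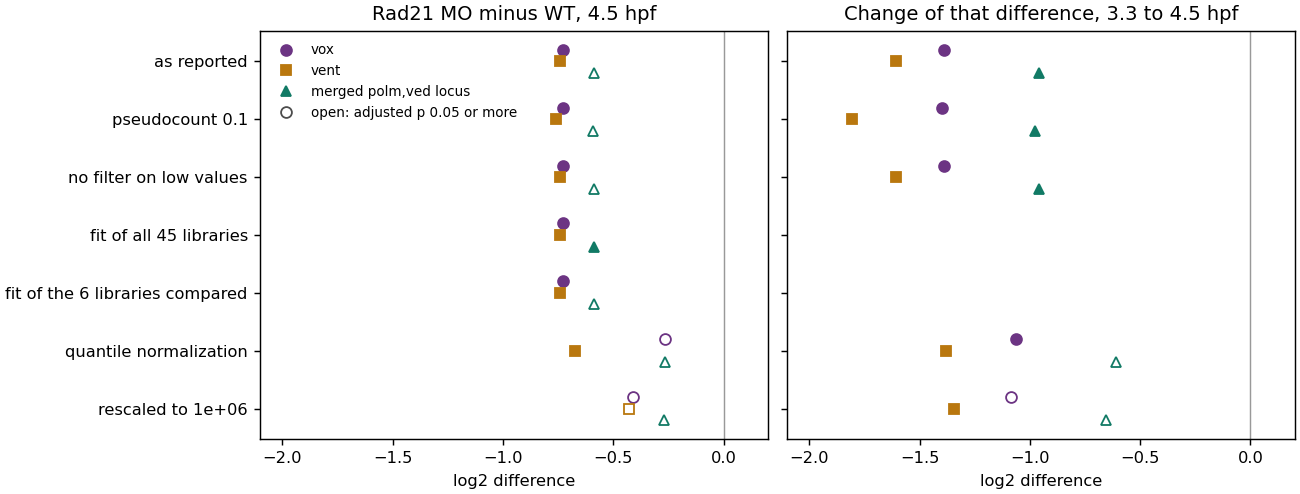
Left, the log2 difference of Rad21 MO from WT at 4.5 hpf for vox, vent and the merged locus under 7 settings, and right, the change of that difference from 3.3 to 4.5 hpf under the 5 settings that apply. Every point lies below 0, and open symbols, which did not pass the adjusted threshold, include vox and vent at -0.41 and -0.43 after rescaling.

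At 5.3 and 10 hpf none of the 3 genes was called in Rad21 MO by limma, where 22.1% and 3.23% of all genes were. vox read 294, 360 and 311.5 FPKM at 5.3 hpf, below all WT libraries (-0.47, SE 0.15, 95% interval -0.81 to -0.13, adjusted p = 0.0545). vent read 81.9, 88.1 and 75.8 FPKM and overlapped WT (-0.32, adjusted p = 0.133), and its sign flipped to 0.037 after rescaling to 1e+06. eve1 read 64.4, 63.6 and 51.4 FPKM, inside the WT range (-0.23, adjusted p = 0.721), and reached 0.13 after that rescaling. The merged locus read 232.6, 193 and 209.9 FPKM, below all WT libraries (-0.54, SE 0.17, adjusted p = 0.0508), and was called in the fit of all 45 libraries (adjusted p = 0.0463). For vox and vent the unadjusted p was under 0.05, as it was for 5426 of all 15214 genes tested. The authors' deposited table lists vox (-0.45, q = 0.0139) and polm,ved (-0.51, q = 0.00534) as lower at 5.3 hpf, among 3525 entries. Without WT library 2, which was the lowest WT library for all 3 genes, vox and vent were both called, at -0.59 (adjusted p = 0.0291) and -0.44 (adjusted p = 0.0445), and so was the merged locus at -0.71 (adjusted p = 0.0118).

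At 10 hpf the Rad21 MO values were close to WT for vox (147, 153 and 151 FPKM; 0.09, 95% interval -0.26 to 0.44, adjusted p = 0.813). vent read 27.2, 24.0 and 24.5 FPKM (-0.14, 95% interval -0.53 to 0.24, adjusted p = 0.713) and eve1 11.8, 10.3 and 12.2 (-0.22, 95% interval -0.55 to 0.11, adjusted p = 0.474). All 3 overlapped WT, none had an unadjusted p under 0.05, and none is among the 1496 entries of the authors' deposited table. The merged locus went the other way, at 58.7, 55.4 and 65.8 FPKM, above every WT library (0.41, 95% interval 0.089 to 0.73, adjusted p = 0.164). Its difference from WT changed by 0.95 between 5.3 and 10 hpf (SE 0.28, adjusted p = 0.0192), and this call ended under rescaling (0.60, adjusted p = 0.209), under quantile normalization (0.60, adjusted p = 0.078) and without any 1 of 4 libraries (adjusted p from 0.05 to 0.0673). These were WT library 0 of 5.3 hpf, WT library 2 of 10 hpf, Rad21 MO library 1 of 5.3 hpf and Rad21 MO library 2 of 10 hpf. No change of the Rad21 MO difference was called for the 3 genes from 2.5 to 3.3 hpf, from 4.5 to 5.3 hpf or from 5.3 to 10 hpf, where 0.00528%, 0.0792% and 14.1% of all genes were called. Over those steps only vent from 2.5 to 3.3 hpf, with a change of 0.81, was under 0.05 without adjustment in limma. At that step 355 of all 18943 genes tested were.

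Before the main onset, at 2.5 hpf, vox alone was high enough to be tested. It read 17.5, 17.7 and 6.78 FPKM in Rad21 MO, 1 library of which lay within the WT range (0.86, 95% interval -0.13 to 1.85, adjusted p = 0.9999). It read 4.79, 1.37 and 5.06 FPKM in CTCF MO, below every WT library (-0.81, 95% interval -1.80 to 0.18, adjusted p = 0.637). Called genes made up 0% of all genes in either comparison, and vox had no unadjusted p under 0.05. vent stood between 0.0873 and 0.66 FPKM in all 9 libraries of this stage.

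The ctcf morpholino gave no call for vox, vent or eve1 at any stage. Called genes made up 0.0569% of all genes at 3.3 hpf, 0.00671% at 4.5 hpf, 8.95% at 5.3 hpf and 0.0182% at 10 hpf. vox read 41.6, 57.3 and 45.3 FPKM at 3.3 hpf (-0.31, 95% interval -0.58 to -0.035, adjusted p = 0.394) and 245, 299.8 and 307 at 4.5 hpf (-0.25, 95% interval -0.60 to 0.10, adjusted p = 0.481). At 5.3 hpf it read 296, 349.9 and 406 FPKM (-0.35, 95% interval -0.70 to -0.010, adjusted p = 0.182). Its mean was below WT at each of the 5 stages, its libraries overlapped WT from 3.3 hpf on, and its unadjusted p was under 0.05 at 3.3 and 5.3 hpf. Of all genes tested, 1566 of 14051 at 3.3 hpf and 3916 of 15214 at 5.3 hpf had an unadjusted p under 0.05. At 10 hpf vox read 107, 146.5 and 169 FPKM (-0.03, adjusted p = 0.999), with a sign that flipped to 0.021 after rescaling.

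Mean vent in CTCF MO was between 95.9% and 113% of WT from 3.3 hpf on. It read 2.68, 4.57 and 2.72 FPKM at 3.3 hpf (0.13, 95% interval -0.47 to 0.72) and 41.9, 55.2 and 55.7 at 4.5 hpf (-0.02, 95% interval -0.46 to 0.41). At 5.3 hpf it read 85.1, 98.0 and 114 FPKM (-0.06, 95% interval -0.37 to 0.26) and at 10 hpf 23.1, 21.9 and 35.5 (-0.09, 95% interval -0.47 to 0.30). The limma adjusted p for vent lay between 0.849 and 0.999 over these 4 stages, and its sign at 4.5 and 5.3 hpf flipped under both scaling alternatives.

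eve1 read 5.78, 18.0 and 9.11 FPKM at 4.5 hpf in CTCF MO (0.35, 95% interval -1.11 to 1.82), 37.7, 61.5 and 80.3 at 5.3 hpf (-0.28, 95% interval -1.15 to 0.59) and 12.04, 14.8 and 12.7 at 10 hpf (-0.03, 95% interval -0.36 to 0.30). At 3.3 hpf it was listed at 0.226, 0.386 and 0.149 FPKM, against 0 in all WT libraries, which is too low to be tested. The merged locus at 3.3 hpf read 26.3, 27.3 and 27.5 FPKM, above every WT library (0.40, 95% interval 0.11 to 0.69, adjusted p = 0.316). It read 129, 191 and 151 FPKM at 4.5 hpf (-0.13, adjusted p = 0.864), 207, 241 and 281 at 5.3 hpf (-0.35, adjusted p = 0.238) and 34.8, 45.5 and 38.5 at 10 hpf (-0.18, adjusted p = 0.999). No change of the CTCF MO difference between neighbouring stages was called for any of these, where 0.00528%, 0.106%, 0.0106% and 4.42% of all genes were, in order of stage, and no unadjusted p of the 3 genes was under 0.05 there. The authors' deposited tables for CTCF MO list none of the 4, with 164, 89, 902, 2172 and 135 entries from 2.5 to 10 hpf.

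Set directly against each other, the 2 knockdowns differed in vox at 3.3 hpf. All 3 Rad21 MO libraries, at 90.7 FPKM or more, lay above all CTCF MO libraries, at 57.3 or less (log2 difference 0.97, SE 0.12, 95% interval 0.70 to 1.24, adjusted p = 0.0457). vox was 1 of the 2 genes tested and 0.0427% of all genes were called. The value of 0.97 moved little in other settings (0.87 to 1.10), but the call ended with a pseudocount of 0.1 (adjusted p = 0.0524), with no filter (0.0791), after rescaling (0.153), in the fit of all libraries (0.336), and without any Rad21 MO library or CTCF MO library 0 or 2 (0.207 to 0.301). At 2.5 hpf vox was again higher in all Rad21 MO than in all CTCF MO libraries (1.67, 95% interval 0.68 to 2.66, adjusted p = 0.728), with 0% of genes called and an unadjusted p of 0.00401 from limma for vox. At 4.5 hpf the order was reversed, with vox at -0.48 (95% interval -0.83 to -0.13, adjusted p = 0.122) and vent at -0.72 (95% interval -1.15 to -0.29, adjusted p = 0.0768), all Rad21 MO libraries below all CTCF MO libraries for both genes. None was called there against 2.76% of all genes, nor at 5.3 hpf (4.5%) or 10 hpf (3.38%). vox and vent had unadjusted p under 0.05 at 4.5 hpf, as had 3357 of all 14902 genes tested, and no member had at 5.3 or 10 hpf.

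Ordered by mean over the 15 groups, the 3 treatments of 5.3 hpf stood at the top for vent, eve1 and the merged locus. For vox, WT of 4.5 hpf at 339.5 ± 58.8 FPKM stood between CTCF MO of 5.3 hpf (351 ± 55.2) and Rad21 MO of 5.3 hpf (322 ± 34.4). Of the 14 pairs of neighbours in that order, the libraries overlapped in 8 for vox, 10 for vent, 12 for eve1 and 10 for the merged locus. The same count was not made over all genes, so whether these numbers are unusual is unknown. Rad21 MO of 4.5 hpf stood apart from both of its neighbours for vox, at 203 ± 22.2 FPKM between 284 ± 34.3 in CTCF MO of the same stage and 150 ± 3.11 in Rad21 MO of 10 hpf. For vent it lay apart only from the group above, at 30.9 ± 7.40 FPKM against 51.0 ± 7.86 in CTCF MO of 4.5 hpf.

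Pools of one group differed in the same direction for several of these genes. WT library 0 of 4.5 hpf was the lowest of its 3 for vox, vent, eve1 and the merged locus, and WT library 2 of 5.3 hpf was the lowest for all 4 too. Across the 27 libraries from 4.5 hpf on, deviations from the group mean of log2(FPKM + 1) correlated with r = 0.70 between vox and vent, 0.68 between vent and eve1, 0.55 between vox and eve1, and 0.89 between eve1 and the merged locus. Over all 45 libraries they were lower, at 0.42, 0.55, 0.28 and 0.84 in the same order. With the merged locus, r from 4.5 hpf on was 0.51 for vox and 0.67 for vent, and over all 45 libraries 0.19 and 0.54. These points share libraries and their scaling. The summed level of 11 enveloping layer markers was also lowest in those pools, at 1538 FPKM against 1582 and 2406 in WT of 4.5 hpf and at 3502 against 4326 and 4781 in WT of 5.3 hpf. The sums of the yolk syncytial layer, BMP feedback, BMP ligand, mesoderm and genome activation lists were lowest in the same pools, and that of the germline markers was highest there, at 431 FPKM in WT of 4.5 hpf and 333 in WT of 5.3 hpf. The part of these in the spread was not tested.

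**Figure D5:**
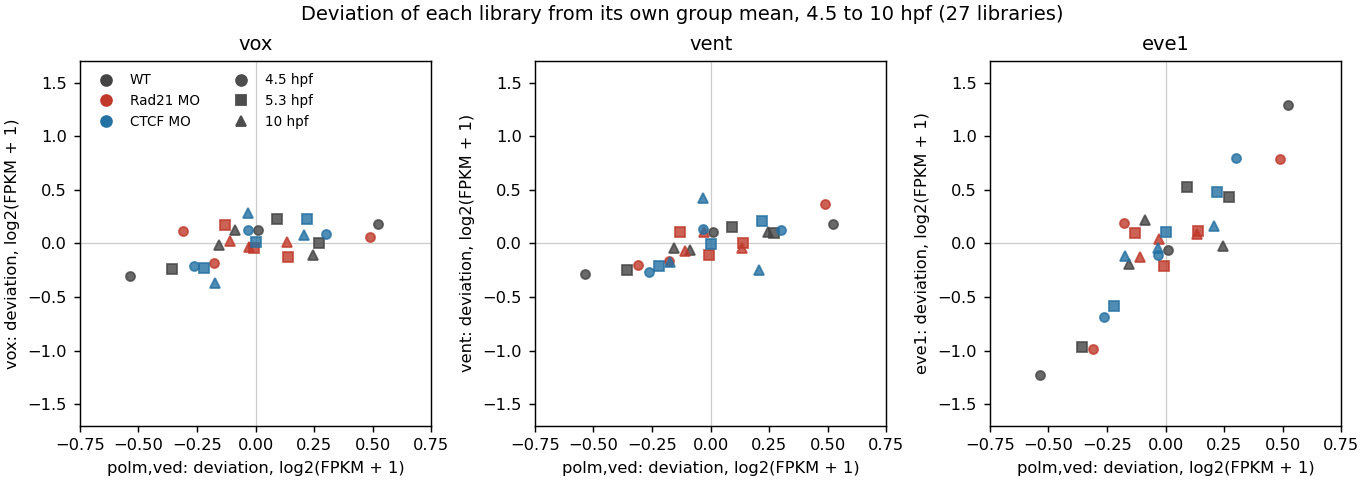
Deviation of each of 27 libraries from its group mean, in log2(FPKM + 1), for vox, vent and eve1 against the merged polm,ved locus; colour gives the treatment and shape the stage. eve1 deviates most widely and follows the merged locus (r = 0.89) more closely than vox (0.51) or vent (0.67).

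Genes whose group means of log2(FPKM + 1) tracked each member most closely were picked from 10221 genes over the 15 groups, as a description. For vox they were sox3, a SoxB1 factor of the early embryo (r = 0.979), marcksl1b (0.978) and the myc family gene mych (0.976). For vent they were ftr82 (0.995), bambia, a BMP-induced pseudoreceptor (0.993), and bhik (0.992). For eve1 they were zbtb7a (0.995), the FGF ligand gene fgf24 (0.995) and E2F2 (0.991). sox3 reached 372 FPKM and bambia 267 in WT at 5.3 hpf, while zbtb7a and fgf24 were at 7.78 and 8.41. Among themselves, group means of vox and vent correlated with r = 0.96, vent and eve1 with 0.93 and vox and eve1 with 0.81. The groups share stages and libraries, so these values mostly describe the time course.

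Other genes of the dorsoventral network were described from 6 lists, with vox, vent and eve1 left out of them. Of 19 tested BMP ligands, receptors and effectors, 1 was higher and 3 were lower in Rad21 MO at 4.5 hpf, with a median log2 difference of 0.04, beside -0.07 over all genes, of which 20.6% were called. After rescaling 3 were higher and 1 lower (median 0.21), and under quantile normalization none was higher and 1 lower. The lower ones included the ligand gene bmp7a, at 15.4 ± 0.705 FPKM against 37.7 ± 1.79 in WT (-1.23, SE 0.20, adjusted p = 0.00564), and the type I receptor gene acvr1l (-0.55, adjusted p = 0.0131), and the receptor gene bmpr1ab was higher (0.62, adjusted p = 0.0251; 0.50, adjusted p = 0.0633 under quantile normalization). After rescaling, bmp7a was still called (-0.93, adjusted p = 0.0198) and acvr1l was not (-0.23, adjusted p = 0.379). Of 14 BMP feedback and ventral tissue genes 2 were higher and 1 was lower, with a median of -0.41. bambia was the lower one, at 89.5 ± 4.36 against 156 ± 33.3 FPKM (-0.77, adjusted p = 0.0313), and it lost its call under both scalings; id2a, an inhibitor of helix-loop-helix factors, was higher (1.08, adjusted p = 0.00204), and so was klf2b (0.71, adjusted p = 0.0202).

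Of 16 Wnt8 signalling genes 1 was higher and 1 lower in Rad21 MO at 4.5 hpf (median -0.19), and after rescaling 2 were higher and none lower (median 0.09), beside 20.6% of all genes called. Without rescaling the genes called were the transcriptional effector lef1 at 0.73 (adjusted p = 0.016) and the beta-catenin gene ctnnb1 at -0.60 (adjusted p = 0.0105), which was not called after rescaling (-0.28, adjusted p = 0.238). Of 15 organizer and dorsal genes, which include the known targets of Vox, Vent and Ved, none was higher and 2 were lower at 4.5 hpf (median -0.31, and 0.01 after rescaling). Those were admp (-0.95, adjusted p = 0.0225) and dharma (-0.64, adjusted p = 0.042), both uncalled after rescaling. Under quantile normalization both were called (admp -1.02, adjusted p = 0.0235, and dharma -0.74, adjusted p = 0.0311). chd, the BMP antagonist chordin, was called higher at 3.3 hpf, at 5.35 ± 0.844 against 1.58 ± 0.549 FPKM (1.31, SE 0.19, adjusted p = 0.0426), the stage at which vox and vent were above WT too. It was the only one called of 11 organizer genes there, beside 0.171% of all genes called. It was not called after rescaling (adjusted p = 0.0696) or quantile normalization (adjusted p = 0.0519). At 5.3 hpf, where 22.1% of all genes were called, 2 of 15 were called higher. They were flh (0.78, adjusted p = 0.00973) and fgf8a (0.50, adjusted p = 0.0234), and both kept their calls under both scalings. At 10 hpf, where 3.23% of all genes were called, gsc was higher (1.26, adjusted p = 0.0267) and nog1 lower (-0.87, adjusted p = 0.037). After rescaling neither was called (gsc 1.10, adjusted p = 0.0623, and nog1 -0.82, adjusted p = 0.102). Under quantile normalization both were (gsc 1.18, adjusted p = 0.0385, and nog1 -0.90, adjusted p = 0.0381).

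Of 11 posterior and ventrolateral mesoderm genes 1 was higher and 1 lower in Rad21 MO at 4.5 hpf (median -0.21, and 0.02 after rescaling). cyp26a1, the retinoic acid degrading enzyme, was higher at 4.5 (0.77, adjusted p = 0.018) and 5.3 hpf (1.10, adjusted p = 0.00154) and lower at 10 hpf (-1.95, adjusted p = 0.00687). It was also called higher at 3.3 hpf (0.96, adjusted p = 0.0426), but not after rescaling (adjusted p = 0.0762) or quantile normalization (adjusted p = 0.0519). Of all genes, 22.1% were called at 5.3 hpf and 3.23% at 10 hpf. Others of this list called lower at 10 hpf included wnt3a (-1.58, adjusted p = 0.00833), under both scalings too. tbx16 was also called lower there (-0.76, adjusted p = 0.0131), but not after rescaling (adjusted p = 0.0623). drl, a zinc finger gene of lateral mesoderm, was lower at 4.5 hpf (-0.62, adjusted p = 0.0235). It was not called after rescaling (-0.31, adjusted p = 0.353) but was under quantile normalization (-0.54, adjusted p = 0.047). Of 16 regulators and early targets of genome activation 2 were higher and 4 lower (median -0.57), among them blf (-0.84, adjusted p = 0.00399) and sox19a (-0.79, adjusted p = 0.02) lower and sox19b higher (0.61, adjusted p = 0.028). After rescaling 3 of these were higher and none was lower. Under quantile normalization blf kept its call (-0.34, adjusted p = 0.0481) and sox19a did not (-0.45, adjusted p = 0.085). In CTCF MO at 4.5 hpf, where only 0.00671% of all genes were called, no gene of these 6 lists was called. Their medians there lay between -0.07 and 0.08. At 5.3 hpf, 8.95% of all genes were called in CTCF MO. Genes of these lists called higher at that stage included cyp26a1 (0.62, adjusted p = 0.032) and sox19b (0.78, adjusted p = 0.00408). Both kept their calls under both scalings. Those called lower included tbx16 (-0.70, adjusted p = 0.00523) and pou5f1 (-0.42, adjusted p = 0.0311), neither of them called after rescaling.

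Markers of other cell types were measured in the same libraries. Of 11 tested enveloping layer markers all were below WT at 4.5 hpf, 2 of them called (median -0.74), near the 20.6% of all genes, and after rescaling 9 were below WT, 1 called (median -0.42). At 3.3 hpf 6 of 7 tested were above WT, none called (median 0.88). Their summed level was 68.8 to 117.4 FPKM in Rad21 MO against 31.2 to 55.0 in WT at 3.3 hpf, and 945 to 1424 against 1538 to 2406 at 4.5 hpf. Their Rad21 MO difference changed from 3.3 to 4.5 hpf in the direction of vox and vent in all 11, with 6 called (median -1.06). Of all genes, 11.6% were called for that change (median -0.04). None of the enveloping layer markers was at 0 in either group at 4.5 hpf, where the keratin gene krt4, which the BMP feedback and ventral tissue list holds too (as the genome activation list holds krt18 and the yolk marker mxtx2), was at 191 ± 40.2 FPKM in Rad21 MO and 342 ± 103 in WT, and cyt1l was at 0 in both at 3.3 hpf. Of 7 yolk syncytial layer markers all were below WT at 4.5 hpf, 1 of them called (median -0.53), and after rescaling 6 were below WT, none called (median -0.23). Their sums were 508 to 767 FPKM against 852 to 1332 in WT, and 3 of 4 tested were above WT at 3.3 hpf (median 0.79), none called. Of the yolk markers in the file, ttr was listed at 0 in Rad21 MO and at 0.0973 ± 0.168 FPKM in WT at 4.5 hpf, and hnf4a at 0 in WT at 3.3 hpf. In the opposite direction, of 10 germline markers 5 were called higher and none lower at 4.5 hpf (median 0.55), and of 10 maternal oocyte transcripts 3 were higher and 1 lower (median -0.03, and 0.27 after rescaling). Among the latter btg4, known in mouse as an adaptor for deadenylation of maternal messages, was at 213 ± 60.9 FPKM in Rad21 MO, 94.7 ± 26.3 in CTCF MO and 32.6 ± 6.19 in WT. The part of these in the vox and vent values was not tested.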

How the data were processed

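The authors' deposited table holds FPKM per gene and library. The submitters' processing notes name the zebrafish build Zv9 (danRer7), the aligner TopHat2 2.0.9, Cufflinks 2.2.0 and Cuffdiff. Any scaling between libraries is not given in the sources used here. FPKM falls when other RNAs rise. Further tables deposited by the authors cover genes they marked as significant, with the q-value and p-value, the statistic (a score), the log2 change and each group's FPKM. Libraries were stranded total RNA depleted of ribosomal RNA, per the labels' protocols. Coordinates are as in the files, whose counting from 0 or 1 is not stated.

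limma 3.58.1 in R 4.3.3 (mean-variance trend, moderated two-sided test, Benjamini-Hochberg adjustment) was run on log2(FPKM + 1) for genes with at least 1 FPKM in at least 3 libraries of the fit. Fits used the 9 libraries of a stage, the 15 WT libraries, or all 45 for a change of a knockdown's difference between stages. An exact 0 can be a failed estimate. The scripts were tested on simulated data. Figures were drawn with matplotlib 3.10.9.

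The genes, lists and tests were chosen with earlier results of these data known. Of each list, at most 3 genes per comparison could be named, those with the smallest adjusted p among genes called, with groups apart and at least 5 FPKM, and like genes were the 3 with the highest r and at least 5 FPKM in a group mean. Where 2 rows share a symbol in a list, the upper one was used. Alternatives were another pseudocount, no filter, rescaling, quantile normalization, other sets of libraries in the fit, a block on the column number and leaving libraries out. No sequence is shown.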

Additional observations from a re-analysis of the deposited data

Results flagged for a closer look

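The Rad21 MO difference from WT changed between neighbouring stages by the limma interaction test in 4 instances. From 3.3 to 4.5 hpf it changed by -1.39 for vox (adjusted p = 0.0126), -1.61 for vent (adjusted p = 0.000262) and -0.96 for the merged polm,ved locus (adjusted p = 0.0208). From 5.3 to 10 hpf it changed by 0.95 for the merged locus (adjusted p = 0.0192). In vox and vent all 3 Rad21 MO libraries lay above WT at 3.3 hpf and below WT at 4.5 hpf. How many of all genes separate in this way was not counted.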

How the results depend on the processing

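Values are log2 differences. vox and vent stayed below WT in Rad21 MO at 4.5 hpf under every alternative run. Of vox, vent and eve1, the number called in Rad21 MO against WT at 4.5 hpf went from 2 to 1 under quantile normalization and to 0 after rescaling, and ranged from 0 to 2 without single libraries. At 5.3 hpf it went from 0 to 1 in a fit of the 6 libraries compared and ranged from 0 to 2 without single libraries, and at 3.3 hpf it was 1 in the fit of all 45 libraries. For Rad21 MO against CTCF MO at 3.3 hpf it went from 1 to 0 in the fit of all 45 libraries, with no filter, with a pseudocount of 0.1 and after rescaling, and ranged from 0 to 1 without single libraries. That count rose from 0 to 1 at 2.5 and at 4.5 hpf in the fit of all 45 libraries. For the change of the Rad21 MO difference from 3.3 to 4.5 hpf it went from 2 to 1 after rescaling, and ranged from 1 to 2 when 1 Rad21 MO library of each of these stages was left out, a choice made after seeing the data. The cause of these shifts was not tested. Where libraries were left out, their number and their values changed together. The table's columns number the libraries 0, 1 and 2 and do not carry the replicate letters of the labels, so the labels' pairing could not be tested. Across genes, deviations of same-numbered columns of a stage correlated by more than 0.1 in 10 of 45 pairs of libraries (r from -0.16 to 0.30). These 10 include all 3 pairs of WT with Rad21 MO at 5.3 hpf (r from 0.162 to 0.235). When each column was matched to the 3 columns of another treatment at its stage, the best match had its own number in 17 of 45 cases. Whether columns that share a number also share a batch or clutch is not stated and was not tested. With that number as a replicate block, added after seeing the data, 2 genes remained called in Rad21 MO against WT at 4.5 hpf (vox at an adjusted p of 0.0031 and vent at 0.00725 in limma) and 2 for its change from 3.3 hpf, the merged locus was called too at 4.5 hpf (-0.59, adjusted p = 0.021), and for Rad21 MO against CTCF MO at 4.5 hpf the number called went from 0 to 2. At 5.3 hpf the block raised the limma adjusted p in Rad21 MO against WT and gave no call. It was 0.0602 for vox, 0.168 for vent and 0.0863 for the merged locus, against 0.0545, 0.133 and 0.0508 without the block.

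Uncalled values near 0 changed sign in some settings. For vox these were CTCF MO at 10 hpf (0.021 rescaled), Rad21 MO against CTCF MO at 5.3 hpf (0.019 quantile), the change of the CTCF MO difference from 4.5 to 5.3 hpf (0.11 rescaled) and that of the Rad21 MO difference from 2.5 to 3.3 hpf (0.025 quantile). For vent they were CTCF MO at 4.5 hpf (0.034 quantile, 0.026 rescaled) and 5.3 hpf (0.093, 0.21), Rad21 MO at 5.3 hpf (0.037 rescaled), the CTCF MO change from 4.5 to 5.3 hpf (0.050, 0.18) and the Rad21 MO change from 5.3 to 10 hpf (-0.0014, -0.16). For eve1 they were CTCF MO at 10 hpf (0.016 rescaled), Rad21 MO at 5.3 hpf (0.13 rescaled), the CTCF MO change from 3.3 to 4.5 hpf (-1.34 with a pseudocount of 0.1, -0.14 quantile, -0.031 rescaled) and the Rad21 MO change from 5.3 to 10 hpf (-0.0049, -0.23, -0.32 in the same order). For the merged locus they were CTCF MO at 4.5 hpf (0.028 quantile) and the CTCF MO change from 5.3 to 10 hpf (-0.052 quantile, -0.050 rescaled).

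Leaving out single libraries also moved uncalled values across 0. For vox the ranges were -0.17 to 0.15 (CTCF MO, 10 hpf), -0.066 to 0.26 (Rad21 MO against CTCF MO, 10 hpf), -0.093 to 0.19 and -0.22 to 0.047 (CTCF MO change to 4.5 and to 5.3 hpf), and -0.62 to 0.013 (Rad21 MO change to 3.3 hpf). For vent they were -0.070 to 0.27, -0.17 to 0.11, -0.18 to 0.047 and -0.30 to 0.035 (CTCF MO, 3.3 to 10 hpf), -0.29 to 0.046, -0.16 to 0.11 and -0.25 to 0.091 (CTCF MO change to 4.5, 5.3 and 10 hpf), and -0.18 to 0.16 (Rad21 MO against CTCF MO, 10 hpf). For eve1 they were -0.26 to 1.001, -0.77 to 0.0096 and -0.13 to 0.079 (CTCF MO, 4.5 to 10 hpf), -1.21 to 0.047 and -0.71 to 0.037 (Rad21 MO, 4.5 and 5.3 hpf), -0.24 to 0.30 (Rad21 MO against CTCF MO, 5.3 hpf), -0.58 to 0.68 and -0.037 to 0.74 (CTCF MO change to 4.5 and 10 hpf), and -0.27 to 0.99 and -0.25 to 0.49 (Rad21 MO change to 5.3 and 10 hpf). For the merged locus they were -0.39 to 0.14 (CTCF MO, 4.5 hpf), -0.085 to 0.013 and -0.19 to 0.062 (Rad21 MO against CTCF MO, 2.5 and 3.3 hpf), -0.48 to 0.047 (CTCF MO change to 5.3 hpf) and -0.21 to 0.32 (Rad21 MO change to 5.3 hpf). Read depth is unknown, and 3 pools a group limit the precision, most of all for eve1.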
